A study of Mus musculus with 64 samples.

Results

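The transcription factors and modifiers that carry the signal of the circadian clock to other genes were examined across 2 adipose depots, 2 genotypes and 4 time points. The 8 genes were fixed by name: the PAR bZIP activators *Dbp*, *Tef* and *Hlf*, the bZIP repressor *Nfil3*, the bHLH repressors *Bhlhe40* and *Bhlhe41*, the clock-associated repressor *Ciart* and the deubiquitinase gene *Usp2*. They are 8 of the 52636 genes in the count table, and all 8 were among the 20249 genes that passed the filter on low counts. The rule that names them uses no measured value, though it was written with earlier results of these data known. The depots were brown fat (BAT) and the white fat beside the epididymis (eWAT) of male mice aged 2 to 4 months, collected at ZT 6, 10, 18 or 22, where ZT 0 is the start of the light phase. FANKO mice carried *Nampt* alleles with exon 3 flanked by loxP sites together with Adiponectin-Cre, which acts in adipocytes, so the other cells of each depot kept the gene. WT mice were littermates without Cre. Each of the 16 groups held 4 samples, and the labels do not say whether BAT and eWAT samples of equal number came from the same animal.

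As background, the clock proteins CLOCK and BMAL1 bind E-box elements and drive genes that include *Dbp*, *Tef*, *Ciart*, *Bhlhe40* and *Bhlhe41*. DBP, TEF and HLF then activate genes with a D-box element, and NFIL3 (also known as E4BP4) binds the same element as a repressor. *Nfil3* itself is repressed by the REV-ERB receptors and peaks opposite to *Dbp* in many tissues. BHLHE40 and BHLHE41 (DEC1 and DEC2) compete for E-boxes, CIART (CHRONO) represses CLOCK and BMAL1, and USP2 removes ubiquitin from clock proteins.

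The promoters were searched for the E-box in its exact form CACGTG alone. Sequence farther from the start sites was not searched, so a member without a match may carry an E-box elsewhere. In the RefSeq promoter table (GRCm38.p6, from 250 bases before to 50 bases after each start site), 7 of the 8 members had an entry, with 8 start sites in all. *Bhlhe40* had none. The E-box CACGTG, which reads the same on both strands, was present in 7.15% of all 32851 promoters in that table. Among the members it occurred in *Ciart*, at both start sites of *Tef* and in *Bhlhe41*, and was not found in these windows of *Dbp*, *Hlf*, *Nfil3* or *Usp2*. *Ciart* held 3 copies, which begin 116, 58 and 44 bases upstream of its start site, and 29 promoters in the table (0.0883%) held 3 or more. The single copies of *Tef* begin 127 and 138 bases upstream of its first and second start site, and that of *Bhlhe41* 153 bases upstream. The D-box TTANGTAA, searched on both strands, was found in 2.32% of all promoters and in none of the members, and no matches overlapped. Sequences are shown for the 3 genes with the E-box, and for *Dbp* and *Nfil3*, the members with a called difference of rhythm between genotypes. That difference was called in both depots for *Dbp* and in BAT alone for *Nfil3*. Each sequence is in the direction of transcription with E-boxes in capitals.
*Ciart*, chr3:95882179-95882478, minus strand: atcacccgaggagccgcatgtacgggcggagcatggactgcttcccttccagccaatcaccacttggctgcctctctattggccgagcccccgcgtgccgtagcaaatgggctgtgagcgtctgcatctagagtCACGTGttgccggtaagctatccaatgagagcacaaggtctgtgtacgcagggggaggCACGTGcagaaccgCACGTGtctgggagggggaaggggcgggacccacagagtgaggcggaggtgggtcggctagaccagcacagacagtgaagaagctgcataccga
*Tef*, second start site, chr15:81811164-81811463, plus strand: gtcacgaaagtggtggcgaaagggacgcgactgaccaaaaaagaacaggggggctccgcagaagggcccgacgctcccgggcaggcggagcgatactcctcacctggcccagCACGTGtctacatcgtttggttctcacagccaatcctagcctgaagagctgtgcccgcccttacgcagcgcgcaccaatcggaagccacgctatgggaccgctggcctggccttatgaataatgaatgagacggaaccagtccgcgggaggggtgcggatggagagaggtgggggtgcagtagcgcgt
*Bhlhe41*, chr6:145865371-145865670, minus strand: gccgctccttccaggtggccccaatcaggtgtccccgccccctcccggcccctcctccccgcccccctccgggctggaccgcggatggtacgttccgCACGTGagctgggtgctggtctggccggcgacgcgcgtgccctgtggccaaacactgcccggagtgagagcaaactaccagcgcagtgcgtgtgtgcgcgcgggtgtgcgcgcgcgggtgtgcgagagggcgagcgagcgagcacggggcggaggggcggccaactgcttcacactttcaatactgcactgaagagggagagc
*Dbp*, chr7:45704997-45705296, plus strand: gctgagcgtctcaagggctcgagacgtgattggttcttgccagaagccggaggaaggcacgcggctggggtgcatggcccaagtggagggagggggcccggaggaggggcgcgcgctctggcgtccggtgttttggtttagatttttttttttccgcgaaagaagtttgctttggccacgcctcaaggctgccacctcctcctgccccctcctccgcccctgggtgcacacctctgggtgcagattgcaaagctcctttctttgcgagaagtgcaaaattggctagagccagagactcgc
*Nfil3*, chr13:52980990-52981289, minus strand: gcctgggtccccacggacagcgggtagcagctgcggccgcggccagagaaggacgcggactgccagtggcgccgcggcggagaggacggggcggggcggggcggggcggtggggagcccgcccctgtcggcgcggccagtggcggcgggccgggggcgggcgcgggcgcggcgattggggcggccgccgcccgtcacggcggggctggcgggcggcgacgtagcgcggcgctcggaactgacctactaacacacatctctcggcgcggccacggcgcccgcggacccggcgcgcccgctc

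In the GENCODE M21 annotation of GRCm38 the members lie on 7 chromosomes. *Dbp* spans chr7:45705088-45710203, *Tef* chr15:81802421-81826863 and *Hlf* chr11:90336536-90390895. *Nfil3* spans chr13:52967209-52981073, *Bhlhe40* chr6:108660629-108666925 and *Bhlhe41* chr6:145858243-145865558. *Ciart* spans chr3:95878503-95882251 and *Usp2* chr9:44067021-44095627. *Dbp* shares 539 exonic bases, or 18% of its exonic length, with *Sphk2* on the opposite strand, and *Bhlhe41* shares 19% with the transcript *Gm43909*, also on the opposite strand. *Tef*, *Bhlhe40* and *Usp2* each share between 2.45% and 4.15% with opposite-strand genes (*Gm17597*, *0610040F04Rik*, *Gm49380* and *Gm39325*). Whether the counting used strand is not given in the sources used here, so reads in these stretches are uncertain. *Sphk2*, which encodes a sphingosine kinase, varied only between 3.37 and 4.80 log2 CPM over all samples (CPM is the count scaled to the effective size of the library), and its rhythm passed the threshold in no combination of depot and genotype (edgeR adjusted p between 0.0445 and 0.26). It was higher in FANKO than in WT BAT at ZT 22 by 0.34 on the log2 scale (edgeR adjusted p = 0.00864), where *Dbp* is near its lowest level, and the part of *Sphk2* reads in the *Dbp* counts was not tested.

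The samples held between 6117343 and 30544847 counted reads. *Nampt* was between 479 and 1454 CPM in WT BAT and between 109 and 186 CPM in FANKO BAT, without overlap. In eWAT the genotypes separated at ZT 18 (180 to 310 CPM in WT, 108 to 125 in FANKO) and at ZT 22, but overlapped at ZT 6 and ZT 10, so *Nampt* does not check the labels there. The 16 samples of each depot and genotype also differed in cell markers. From WT to FANKO BAT the median summed level of 6 adipocyte markers went from 12000 CPM (range 10400 to 13600) to 6500 (4790 to 8360), with 6 of 6 lower, and that of 7 brown adipocyte markers from 8040 (5270 to 11400) to 2570 (1370 to 3760), with 4 of 7 lower. Conversely, 6 macrophage markers went from 64.1 CPM (53.7 to 106) to 420 (282 to 686), 4 T and B cell markers from 2.1 (0.89 to 3.72) to 27.9 (14.6 to 55.3) and 4 stromal progenitor markers from 80.8 (71.8 to 121) to 385 (282 to 495), all of them higher. In eWAT the macrophage sum was 402 CPM in WT (345 to 489) and 416 in FANKO (326 to 565), and the 4 white adipocyte markers, all lower in FANKO, summed to 2890 (1510 to 3360) and 894 (735 to 1360). In FANKO eWAT 3 of 6 macrophage markers were called higher, and of 6 adipocyte markers 3 were lower and 1 higher. Of 7 brown adipocyte markers 3 were higher and 1 lower (median sum 66.7 CPM in FANKO eWAT). Of 4 stromal progenitor markers 3 were lower and 1 higher, and of 4 T and B cell markers 2 and 1. The depot labels fit these markers, since the brown adipocyte sum was 22.6 CPM in WT eWAT. No gene of these lists was at 0 in every sample of a combination of depot and genotype. Skeletal muscle markers summed to between 0.211 and 422 CPM in WT BAT and between 2.36 and 389 in FANKO BAT, and in eWAT to between 4.86 and 114, and 1 of 6 was called higher in FANKO eWAT and none in BAT. Epididymis markers reached 35.4 CPM in eWAT and at most 0.141 in BAT, where 4 of 6 were at 0 in all WT and 3 of 6 in all FANKO samples, and none was called. Endothelial markers had medians between 301 and 410 CPM, with 2 of 3 lower in FANKO BAT. In a piece of tissue, fewer cells of a type and less RNA per cell cannot be told apart, and the part of these shifts in the results below was not tested.

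The WT BAT sample of ZT 18 numbered 4 stood apart from its group. It had a mean correlation of 0.973 with the other samples of its group, which had 0.980 to 0.984, and the highest *Tef*, *Nfil3*, *Ciart* and *Usp2* and the lowest *Dbp*, *Bhlhe40* and *Bhlhe41* of the 4. In WT eWAT at ZT 18 the sample numbered 4 had the lowest *Dbp*, *Nfil3*, *Bhlhe40* and *Bhlhe41*, but its mean correlation of 0.961 was no lower than that of the sample numbered 2 (0.961), with the other two at 0.974 or above. Both samples numbered 4 were left out together as an alternative chosen after seeing the data. Where a result below is given without either of these WT ZT 18 samples, both were left out.

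Across WT mice the members spanned a wide range of levels. Per kilobase of exon, mean levels over the 16 WT BAT samples were 34.5 CPM for *Bhlhe40*, 32.9 for *Tef*, 10.6 for *Nfil3*, 9.26 for *Dbp*, 5.91 for *Hlf*, 4.70 for *Usp2*, 3.40 for *Ciart* and 2.08 for *Bhlhe41*, and the ranges of all neighbours in this order overlapped. In WT eWAT *Tef* came first (24.8 CPM per kb), followed by *Bhlhe40* (14.6), *Dbp* (11.3) and *Nfil3* (6.28), with *Usp2*, *Bhlhe41*, *Hlf* and *Ciart* between 2.75 and 1.71. Relative to eWAT, 6 members were higher in WT BAT at an FDR below 0.01 and none was lower, against 32.7% of all genes higher and 41.1% lower. The largest of these differences was that of *Hlf*, 1.66 ± 0.09 on the log2 scale (SE, edgeR adjusted p = 1.44e-24 by quasi-likelihood test over 16 samples a side), followed by *Ciart* (1.43), *Bhlhe40* (1.17), *Nfil3* (0.87), *Usp2* (0.74) and *Tef* (0.47). *Dbp* (-0.30, edgeR adjusted p = 0.0241) and *Bhlhe41* (0.03) did not pass, although *Dbp* was called lower in BAT by DESeq2 (-0.35, adjusted p = 0.00681), without the samples numbered 1 (edgeR adjusted p = 0.00237) and with a replicate block across depots (edgeR adjusted p = 0.000457). Scaling by library size alone moved the median of all genes from -0.11 to -0.86 and the split from 6618 higher and 8314 lower to 2363 and 14884, and with it *Dbp* (-1.05) and *Bhlhe41* (-0.73) were called lower in BAT, while *Tef* (-0.26), *Usp2* (-0.01) and *Nfil3* (0.15) were no longer called. *Hlf*, *Ciart* and *Bhlhe40* were called higher in BAT under both scalings.

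Most members were rhythmic in WT mice. The joint test of a cosine and a sine of 24 h called 7 of 8 in WT BAT, where 13.9% of all genes were called, and 7 of 8 in WT eWAT, where 9.38% were. Of these, *Bhlhe41* in WT eWAT was not called without the samples numbered 1, 3 or 4 (edgeR adjusted p = 0.0304, 0.0551 and 0.0198). The exceptions were *Bhlhe41* in BAT (edgeR adjusted p = 0.684) and *Bhlhe40* in eWAT (edgeR adjusted p = 0.608). In FANKO mice 4 of 8 were called in BAT (*Dbp*, *Tef*, *Ciart* and *Usp2*, background 2.84%) and 5 of 8 in eWAT (the same 4 and *Nfil3*, background 6.77%). Without the WT ZT 18 samples numbered 4, *Nfil3* also passed in FANKO BAT (edgeR adjusted p = 0.00311) and *Bhlhe40* in FANKO eWAT (edgeR adjusted p = 0.00153). No FANKO sample was left out there, and the fit shares its estimate of spread over all samples. A direct comparison of the rhythms between genotypes called 2 members in BAT, *Dbp* and *Nfil3* (background 2.76%), and 1 in eWAT, *Dbp* (background 1.15%), so a rhythm called in WT and not in FANKO mice was not by itself a difference.

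**Figure D1:**
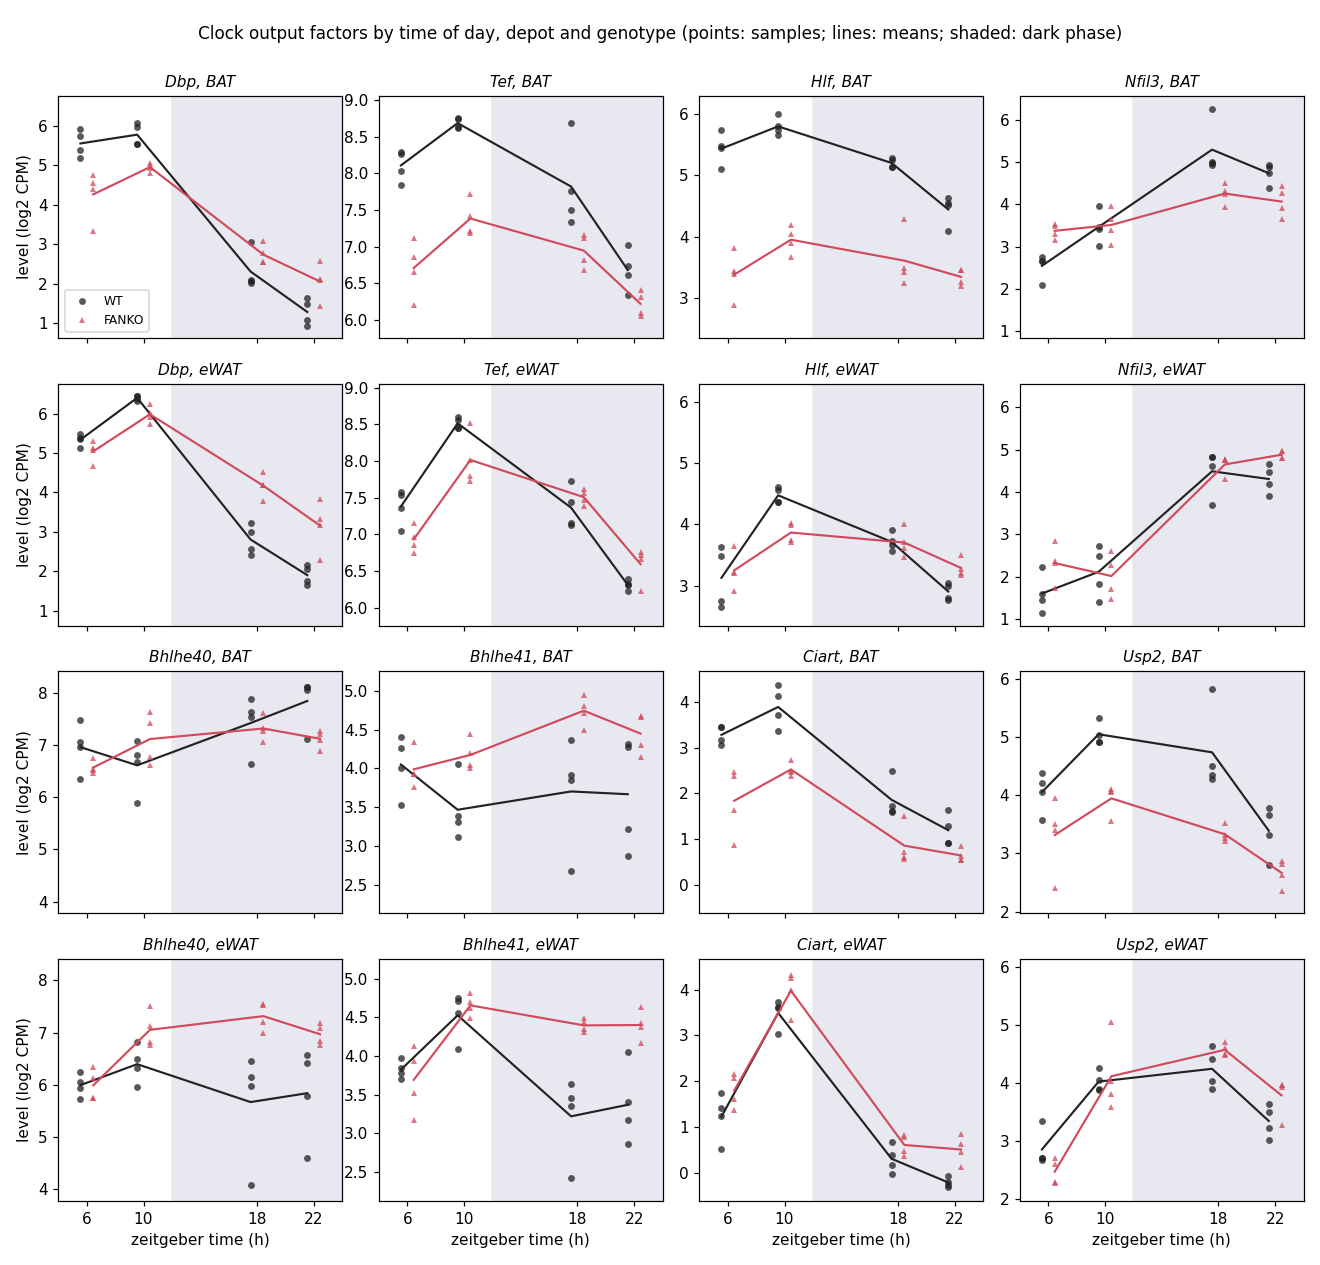
Level of each member as log2 CPM (vertical axis) against zeitgeber time in hours (horizontal axis), with BAT above eWAT for each gene and the same vertical scale in both. Black circles are WT samples, red triangles FANKO samples, lines join the means of 4 samples and the dark phase is shaded. In FANKO mice *Dbp* has lower peaks in BAT and higher dark-phase values in eWAT, and *Nfil3* is flatter in BAT but not in eWAT.

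*Dbp*, a widely used reporter of clock output among the PAR bZIP activators, had the largest amplitude of the members in WT mice of both depots. In WT BAT its 4 samples had 36.0, 41.7, 53.4 and 60.3 CPM at ZT 6 and 46.3, 46.8, 62.3 and 66.7 CPM at ZT 10. They had 3.93, 4.05, 4.15 and 8.26 CPM at ZT 18 and 1.78, 2.01, 2.69 and 2.99 CPM at ZT 22. All light-phase samples were thus far above all dark-phase samples. In FANKO BAT the corresponding values were 9.95, 21.2, 23.4 and 26.9 CPM at ZT 6, 28.1, 30.2, 32.2 and 33.4 at ZT 10 and 5.70, 5.73, 6.78 and 8.32 at ZT 18. Samples of ZT 22 had 2.58, 4.13, 4.23 and 5.90. The genotypes did not overlap at ZT 6 and ZT 10, where FANKO samples were lower, and overlapped at ZT 18 and ZT 22. The differences were -1.23 ± 0.22 at ZT 6 and -0.84 ± 0.22 at ZT 10 on the log2 scale (SE, edgeR adjusted p = 3.41e-06 and 0.00089), and 0.39 ± 0.26 at ZT 18 and 0.75 ± 0.32 at ZT 22, neither past the threshold (edgeR adjusted p = 0.215 and 0.04). The distance from the highest to the lowest time-point mean was 4.49 ± 0.22 log2 units in WT and 2.90 ± 0.24 in FANKO BAT (SE, n = 4 per time point), a range of 22.5-fold against 7.45-fold. The difference of rhythms passed the test (edgeR adjusted p = 0.000103), though not when the samples numbered 3 were left out (edgeR adjusted p = 0.0116). Mean level over the day did not pass (-0.27 ± 0.13, edgeR adjusted p = 0.048) and turned to 0.31 with library size alone.

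In eWAT the range of *Dbp* was also smaller in FANKO mice, and here the called differences lay in the dark phase. WT samples had 34.9, 40.9, 41.6 and 44.5 CPM at ZT 6 and 79.6, 82.9, 86.9 and 87.7 CPM at ZT 10, and FANKO samples 25.5, 33.3, 34.7 and 39.2 CPM and 53.2, 60.6, 64.8 and 75.7 CPM. At ZT 18 *Dbp* was at 5.26, 5.84, 7.89 and 9.26 CPM in WT and at 13.6, 18.04, 18.2 and 22.9 CPM in FANKO eWAT. At ZT 22 it was at 3.04, 3.27, 4.04 and 4.32 CPM in WT and at 4.80, 8.97, 9.87 and 14.2 CPM in FANKO eWAT. At ZT 6 the genotypes overlapped, and at ZT 10 every FANKO sample lay below every WT sample. Every FANKO sample exceeded every WT sample at both dark-phase time points, by 1.38 ± 0.23 at ZT 18 and 1.404 ± 0.26 at ZT 22 on the log2 scale (SE, edgeR adjusted p = 8.94e-06 and 2.15e-05). The differences at ZT 6 (-0.28, edgeR adjusted p = 0.307) and ZT 10 (-0.40, edgeR adjusted p = 0.133) did not pass. The amplitude was 4.49 ± 0.12 in WT and 2.82 ± 0.34 in FANKO eWAT (edgeR adjusted p for the difference of rhythms 4.45e-06), and the mean level was higher in FANKO eWAT by 0.52 ± 0.12 (edgeR adjusted p = 8.73e-05). The call of the mean level ended without the samples numbered 3 (edgeR adjusted p = 0.0119) and with library size alone (0.27, edgeR adjusted p = 0.0288).

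*Tef* and *Hlf*, the other PAR bZIP activators, had their highest mean at ZT 10 like *Dbp* but were lower in FANKO BAT over most of the day. *Tef* in WT BAT was at 229, 262, 306 and 314 CPM at ZT 6 and at 391, 395, 430 and 432 CPM at ZT 10, and in FANKO BAT at 73.8, 100, 116 and 139 CPM and at 146, 148, 171 and 210 CPM. At ZT 18 the WT values were 162, 181, 217 and 411 CPM against 103, 113, 139 and 143 CPM, and at ZT 22 they were 81.1, 98.01, 107 and 130 CPM against 66.3, 68.5, 79.6 and 84.7 CPM. The groups were apart except at ZT 22. Mean level fell by 1.04 ± 0.10 on the log2 scale (SE, edgeR adjusted p = 9.63e-15), a 2.05-fold difference. At ZT 18 the difference was -0.96, and -0.58 without the WT sample that stood apart, past the threshold in both cases (edgeR adjusted p = 1.65e-05 and 0.00296), but not without all samples numbered 4 (-0.50, edgeR adjusted p = 0.0226). The rhythm of *Tef* in BAT was not called different (edgeR adjusted p = 0.0865), but was called without that sample (edgeR adjusted p = 0.00138). In eWAT *Tef* went from an amplitude of 2.20 ± 0.05 with the WT to 1.42 ± 0.22 with the FANKO genotype, with a mean level that differed by -0.12 ± 0.10 (edgeR adjusted p = 0.26) and a rhythm that did not differ at the threshold (edgeR adjusted p = 0.077).

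*Hlf* showed the largest decrease of mean level of the members in FANKO BAT. In WT BAT it was at 34.1, 43.2, 44.2 and 53.2 CPM at ZT 6, at 50.6, 53.0, 55.7 and 63.5 CPM at ZT 10 and at 35.03, 35.04, 38.1 and 38.8 CPM at ZT 18. At ZT 22 the values were 16.9, 22.8, 23.3 and 24.5 CPM. In FANKO BAT it was at 7.28, 10.4, 10.8 and 13.9 CPM at ZT 6, at 12.6, 14.8, 16.5 and 18.2 CPM at ZT 10 and at 9.34, 10.6, 11.1 and 19.5 CPM at ZT 18. Samples of ZT 22 had 9.06, 9.53, 10.9 and 10.9 CPM. The genotypes did not overlap at any time point. Mean level fell by 1.65 ± 0.09 on the log2 scale, a 3.13-fold difference (SE, edgeR adjusted p = 4e-24), from a difference of -2.06 at ZT 6 to one of -1.12 at ZT 22. In eWAT the mean level differed by -0.04 ± 0.09 (edgeR adjusted p = 0.733). Per kilobase, the mean of 5.91 CPM in WT BAT stood above 1.93 in WT eWAT, 1.83 in FANKO BAT and 1.75 in FANKO eWAT, and the sample ranges of those 3 overlapped. The amplitude of *Hlf* was smaller in FANKO mice of both depots, 1.35 ± 0.14 against 0.60 ± 0.13 in BAT and 1.57 ± 0.09 against 0.62 ± 0.17 in eWAT, without a called difference of rhythm (edgeR adjusted p = 0.0833 and 0.0438). At ZT 10 in eWAT *Hlf* was lower in FANKO mice by 0.60 (edgeR adjusted p = 0.00584), a call that was lost with any replicate number left out (edgeR adjusted p between 0.0156 and 0.024).

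*Nfil3*, the repressor at the D-box, was highest in the dark phase and had a much smaller range in FANKO BAT. In WT BAT it was at 4.14, 6.19, 6.24 and 6.66 CPM at ZT 6, at 7.94, 10.6, 10.9 and 15.4 CPM at ZT 10 and at 30.4, 31.3, 31.8 and 76.2 CPM at ZT 18. By ZT 22 the samples were at 20.7, 26.5, 29.3 and 30.4 CPM. In FANKO BAT it was at 8.86, 9.78, 11.1 and 11.4 CPM at ZT 6, at 8.14, 10.4, 12.5 and 15.3 CPM at ZT 10 and at 15.2, 18.9, 19.9 and 22.5 CPM at ZT 18. The ZT 22 samples were at 12.5, 14.9, 19.0 and 21.3 CPM. FANKO samples were thus all higher than WT samples at ZT 6 and all lower at ZT 18. The amplitude was 2.74 ± 0.36 in WT and 0.88 ± 0.14 in FANKO BAT, or 2.42 in WT without the sample that stood apart. The rhythms differed (edgeR adjusted p = 0.000556, and 0.00143 without that sample), although not without all samples numbered 4 (edgeR adjusted p = 0.033). At ZT 18 *Nfil3* was lower in FANKO BAT by 1.14 ± 0.25 on the log2 scale (edgeR adjusted p = 0.000135), or by 0.70 without the WT sample that stood apart (edgeR adjusted p = 0.00679), and the call was lost without all samples numbered 4 (-0.72, edgeR adjusted p = 0.017). The difference at ZT 6 of 0.82 ± 0.29 missed the threshold (edgeR adjusted p = 0.0126). It passed without the WT ZT 18 samples numbered 4 (edgeR adjusted p = 0.00281), which are not in the ZT 6 groups, and the difference stayed at 0.82. Mean level did not pass (-0.23 ± 0.13, edgeR adjusted p = 0.106) and turned to 0.34 with library size alone.

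In eWAT the range of *Nfil3* was alike in both genotypes. WT samples were at 2.08, 2.59, 2.88 and 4.57 CPM at ZT 6, at 2.54, 3.40, 5.50 and 6.52 CPM at ZT 10 and at 12.9, 24.3, 28.0 and 28.1 CPM at ZT 18. At ZT 22 the values were 14.7, 18.1, 22.03 and 25.3 CPM. FANKO samples were at 3.21, 4.90, 5.07 and 7.02 CPM at ZT 6, at 2.63, 3.14, 4.74 and 5.93 CPM at ZT 10 and at 19.6, 26.8, 26.9 and 27.3 CPM at ZT 18. Samples of ZT 22 had 27.5, 27.7, 30.9 and 31.2 CPM. The groups overlapped except at ZT 22, where all FANKO samples were higher and the difference of 0.54 ± 0.25 did not pass (edgeR adjusted p = 0.0983). The amplitude was 2.89 ± 0.35 in WT and 2.87 ± 0.26 in FANKO eWAT, and the fitted difference of peak-to-trough distance was 0.03 with a 95% interval from -0.71 to 0.78. In BAT the same fitted difference was -1.86 with an interval from -2.59 to -1.12. The test of whether the effect of genotype on the rhythm differed between depots did not call *Nfil3* (edgeR adjusted p = 0.0544).

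Since DBP, TEF and HLF compete with NFIL3 for the D-box, the summed level of the 3 activator transcripts per kilobase was divided by that of *Nfil3* in each sample. In WT BAT the ratio was between 15.2 and 32.1 at ZT 6 and between 0.895 and 1.62 at ZT 22, and in FANKO BAT it was between 2.86 and 6.29 at ZT 6 and between 1.20 and 1.92 at ZT 22. The geometric means spanned 15.6-fold over the day in WT BAT, from 20.4 at ZT 6 to 1.31 at ZT 22, and 4.03-fold in FANKO BAT, from 6.09 at ZT 10 to 1.51 at ZT 22. At ZT 6 and ZT 10 no FANKO sample reached the lowest WT sample of that time point, while at ZT 18 and ZT 22 the samples overlapped. In eWAT the ratio spanned 29.5-fold in WT mice, from 37.7 at ZT 10 to 1.28 at ZT 22, and 25.2-fold in FANKO mice, from 29.2 to 1.16 at the same times. The 2 genotypes overlapped at all time points in eWAT. At ZT 6 the geometric mean there was 25.1 in WT and 11.6 in FANKO mice. The FANKO samples had 7.91, 9.74, 11.35 and 20.86, and the WT samples lay between 13.02 and 37.92. These ratios describe transcripts, carry no test, and rest on the values above.

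**Figure D2:**
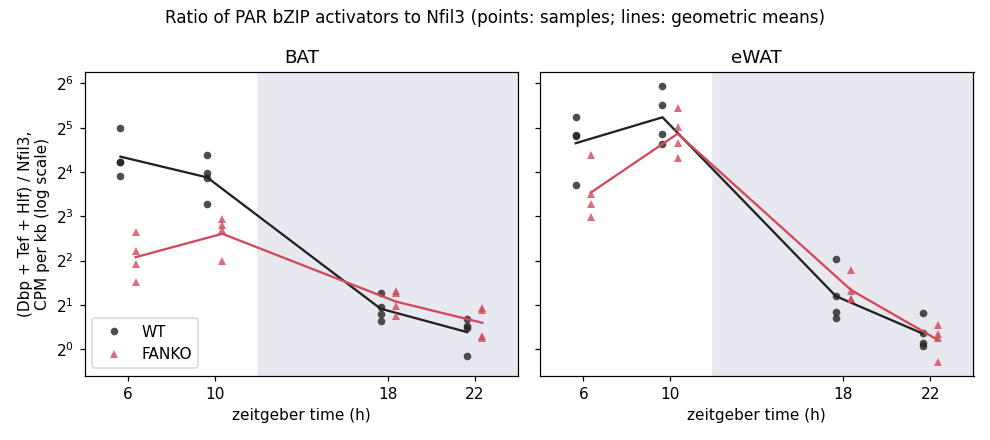
Ratio of the summed *Dbp*, *Tef* and *Hlf* level to the *Nfil3* level, both in CPM per kilobase of exon, on a logarithmic vertical axis against zeitgeber time in hours, for BAT (left) and eWAT (right). Points are samples, lines are geometric means of 4 samples, and the dark phase is shaded. WT BAT spans 15.6-fold and FANKO BAT 4.03-fold, while the lines of both genotypes run close together in eWAT after ZT 6.

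*Bhlhe40* and *Bhlhe41*, the E-box repressors, had their highest mean at ZT 10 in WT eWAT and at other times in BAT. In BAT it lay at ZT 22 for *Bhlhe40* and ZT 6 for *Bhlhe41* in WT mice and at ZT 18 for both in FANKO mice. The rhythm was not called for *Bhlhe40* in WT eWAT (edgeR adjusted p = 0.608) or *Bhlhe41* in WT BAT (edgeR adjusted p = 0.684). Nor was it called for either gene in FANKO BAT (edgeR adjusted p = 0.278 and 0.132), so those times describe means alone. *Bhlhe40* in WT BAT was at 81.1, 124, 133 and 178 CPM at ZT 6, at 58.8, 102, 112 and 135 CPM at ZT 10 and at 99.1, 187, 197 and 235 CPM at ZT 18. By ZT 22 the samples were at 138, 264, 275 and 276 CPM. In FANKO BAT it was between 88.1 and 107 CPM at ZT 6, between 98.1 and 199 at ZT 10, between 134 and 196 at ZT 18 and, in the ZT 22 samples, between 119 and 154, and the genotypes overlapped at all 4 time points. Its mean level differed by -0.21 ± 0.16 (edgeR adjusted p = 0.214) and turned to 0.39 with library size alone. Its rhythm in WT BAT was called (edgeR adjusted p = 0.00386), but not when the samples numbered 1, 2 or 3 were left out (edgeR adjusted p = 0.176, 0.0386 and 0.031). The highest mean lay at ZT 22 in WT and at ZT 18 in FANKO BAT, without a called difference of rhythm (edgeR adjusted p = 0.132).

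In eWAT all FANKO samples lay above all WT samples at ZT 18 and ZT 22 for both genes. *Bhlhe40* in WT eWAT was at 16.8, 63.3, 71.3 and 87.7 CPM at ZT 18. The ZT 22 samples were at 23.97, 55.01, 84.9 and 95.4 CPM, and in FANKO eWAT at 127, 148, 184 and 186 CPM and at 108, 115, 137 and 145 CPM. The lowest FANKO sample thus exceeded the highest WT sample at both times. The difference at ZT 18 was 1.43 ± 0.31 on the log2 scale (edgeR adjusted p = 0.000462), or 1.12 without the WT sample at 16.8 CPM (edgeR adjusted p = 0.00288), and that at ZT 22 was 0.96 ± 0.31 (edgeR adjusted p = 0.0142, and 0.00286 without the WT ZT 18 samples numbered 4). Leaving those ZT 18 samples out did not move the ZT 22 difference of 0.96. Mean level was higher by 0.77 ± 0.16 (edgeR adjusted p = 2.69e-05). At ZT 6 the samples of both genotypes lay between 52.9 and 81.3 CPM.

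*Bhlhe41* in eWAT was at 5.26, 10.1, 10.9 and 12.4 CPM in WT and at 19.8, 20.2, 21.6 and 22.3 CPM in FANKO samples at ZT 18. At ZT 22 the WT samples had 7.13, 8.89, 10.5 and 16.4 CPM and the FANKO samples 17.9, 20.7, 21.4 and 24.7 CPM. The groups were apart at both times, with differences of 1.13 ± 0.26 and 0.98 ± 0.26 on the log2 scale (edgeR adjusted p = 0.000765 and 0.00237), both lost without the samples numbered 1 (edgeR adjusted p = 0.0102 and 0.0156). In BAT it was at 6.29, 14.3, 15.01 and 20.5 CPM in WT and at 22.5, 26.2, 27.9 and 30.9 CPM in FANKO mice at ZT 18, a difference of 0.92 ± 0.25 (edgeR adjusted p = 0.00175), or 0.69 without the WT sample at 6.29 CPM (edgeR adjusted p = 0.0127). Mean level was higher by 0.53 ± 0.14 in both depots (edgeR adjusted p = 0.00074 in BAT and 0.000871 in eWAT). *Bhlhe41* was the only member with a higher mean level in FANKO BAT. In eWAT that call was lost with library size alone (edgeR adjusted p = 0.0669) and without the samples numbered 3 (edgeR adjusted p = 0.0304).

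*Ciart*, the promoter of which held the 3 E-boxes shown above, fell in BAT and kept its time of day. In WT BAT it was at 8.20, 8.90, 10.8 and 10.8 CPM at ZT 6, at 10.1, 12.9, 17.4 and 20.5 CPM at ZT 10 and at 2.90, 2.96, 3.20 and 5.51 CPM at ZT 18. At ZT 22 the values were 1.78, 1.78, 2.33 and 3.01 CPM. In FANKO BAT it was at 1.71, 3.01, 5.08 and 5.41 CPM at ZT 6, at 5.13, 5.45, 5.48 and 6.56 CPM at ZT 10 and at 1.37, 1.41, 1.53 and 2.74 CPM at ZT 18. Samples of ZT 22 had 1.33, 1.34, 1.43 and 1.69 CPM. The genotypes did not overlap at any time point. Mean level fell by 1.09 ± 0.18 on the log2 scale, a 2.13-fold difference (edgeR adjusted p = 1.84e-07), and the rhythm was not called different (edgeR adjusted p = 0.552). The difference at ZT 18 was -0.99 (edgeR adjusted p = 0.00206), and -0.74 without the WT sample that stood apart (edgeR adjusted p = 0.03), and the call was also lost without all samples numbered 2, 3 or 4 (edgeR adjusted p = 0.0125, 0.0225 and 0.0922). In eWAT the peak at ZT 10 was between 8.05 and 13.1 CPM in WT and between 9.97 and 19.8 CPM in FANKO mice. Mean level there was higher by 0.57 ± 0.19 (edgeR adjusted p = 0.0084), a call that 12 other settings lost (edgeR, limma or DESeq2 adjusted p between 0.0103 and 0.12).

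*Usp2*, the deubiquitinase gene, was lower in FANKO BAT around its peak. In WT BAT it was at 30.1, 30.2, 32.7 and 40.0 CPM at ZT 10 and at 19.2, 20.3, 22.5 and 56.8 CPM at ZT 18, and in FANKO BAT at 11.6, 16.5, 16.7 and 17.2 CPM and at 9.14, 9.54, 9.87 and 11.3 CPM. The groups were apart at both times and overlapped at ZT 6 and ZT 22. Mean level fell by 1.04 ± 0.14 on the log2 scale (edgeR adjusted p = 2.56e-09), and the difference at ZT 18 was -1.56, or -1.05 without the WT sample at 56.8 CPM (edgeR adjusted p = 1.62e-06 and 0.000227). In eWAT *Usp2* was highest at ZT 18 in both genotypes, at 14.8, 16.2, 21.1 and 24.7 CPM in WT and at 22.1, 22.5, 24.1 and 25.97 CPM in FANKO samples, and lowest at ZT 6. Neither its mean level (0.16 ± 0.14, edgeR adjusted p = 0.326) nor its rhythm (edgeR adjusted p = 0.627) was called different in eWAT. In FANKO BAT its rhythm was called (edgeR adjusted p = 0.00615), but not without any of the replicate numbers (edgeR adjusted p between 0.0163 and 0.0513).

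The direction of the called mean levels differed between depots. In BAT 4 members were lower in mean level (*Tef*, *Hlf*, *Ciart* and *Usp2*) and 1 was higher (*Bhlhe41*), where 33.9% of all genes were lower and 33.1% higher. In eWAT none was lower and 4 were higher (*Dbp*, *Bhlhe40*, *Bhlhe41* and *Ciart*), where 22.8% of all genes were lower and 27.6% higher. Called in either direction were 5 of 8 members in BAT and 4 of 8 in eWAT, against 67% and 50.3% of all genes. Calls of mean level were thus no more frequent among the members than among all genes. With library size alone the split of all genes changed from 6709 higher and 6861 lower to 12785 and 2274 in BAT, and from 5585 and 4610 to 2389 and 8592 in eWAT, with a median of 0.58 in BAT and -0.27 in eWAT. The same 4 members remained lower in BAT under that scaling, by 1.07 for *Hlf* and by 0.46 to 0.51 for *Tef*, *Ciart* and *Usp2* on the log2 scale. *Dbp*, *Nfil3* and *Bhlhe40*, whose mean levels were not called in BAT, turned to between 0.31 and 0.39, still under the median of all genes. In eWAT that scaling called *Tef* (-0.38, edgeR adjusted p = 0.00131) and *Hlf* (-0.29, edgeR adjusted p = 0.00365) lower, near the median of all genes, and kept only *Bhlhe40* higher (0.53, edgeR adjusted p = 0.00148), with *Dbp*, *Bhlhe41* and *Ciart* lost (edgeR adjusted p = 0.0288, 0.0669 and 0.12).

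**Figure D3:**
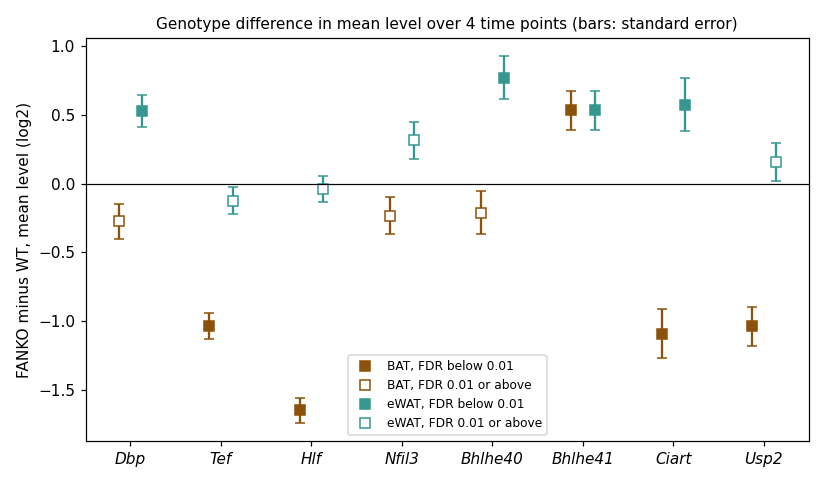
Difference of mean level between FANKO and WT mice over the 4 time points, on the log2 scale (vertical axis), for each member (horizontal axis) in BAT (brown) and eWAT (green). Squares are edgeR estimates from 16 samples a side with their standard errors, filled where the FDR was below 0.01. Apart from *Bhlhe41*, at 0.53 in both depots, every member lies lower in BAT than in eWAT.

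The effect of genotype on mean level was compared between depots in the same fit. It was more negative in BAT for 7 of 8 members and more positive for none, where 32.1% of all genes were called more negative and 32.2% more positive. The differences of effect were -1.66 ± 0.26 for *Ciart*, -1.61 ± 0.13 for *Hlf*, -1.20 ± 0.20 for *Usp2*, -0.98 ± 0.22 for *Bhlhe40*, -0.91 ± 0.14 for *Tef*, -0.80 ± 0.17 for *Dbp* and -0.55 ± 0.19 for *Nfil3*. That of *Nfil3* was near the threshold (edgeR adjusted p = 0.00882) and was lost in 9 other settings, among them without the WT ZT 18 samples numbered 4 (-0.41, edgeR adjusted p = 0.0254). With library size alone, which moved the median of all genes from 0.04 to 0.88 and the split from 6517 more positive and 6508 more negative to 13674 and 1573, only *Ciart* and *Hlf* remained called more negative, *Dbp* (0.04) and *Nfil3* (0.27) turned positive and *Bhlhe41* was called more positive (0.84). The effect of genotype on rhythm was called different between depots for 0 of 8 members by edgeR, where 2.09% of all genes were called, with 3 at an unadjusted p under 0.05 (*Nfil3*, *Bhlhe40* and *Usp2*), and for 0 by limma-voom and DESeq2. Likewise, 0 of 8 rhythms were called different between WT BAT and WT eWAT by edgeR, where 6.98% of all genes were, with 6 at an unadjusted p under 0.05, and 1 by limma-voom and by DESeq2, which was *Bhlhe40* in both. *Bhlhe40* (edgeR adjusted p = 0.012) was also called without the WT ZT 18 samples numbered 4 (edgeR adjusted p = 0.00265).

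By time point, 4 members were called in BAT at ZT 6, 5 at ZT 10, 6 at ZT 18 and only *Hlf* (1 of 8) at ZT 22, where 48.2%, 45.7%, 44% and 45.3% of all genes were called. In eWAT they were 0 by edgeR at ZT 6, with 3 at an unadjusted p under 0.05, 1 at ZT 10, 3 at ZT 18 and 2 at ZT 22, where 27%, 24.5%, 13.6% and 20.6% were called. At ZT 6 in eWAT DESeq2 and limma-voom called 0 as well. Without the WT ZT 18 samples numbered 4, the sum of calls over BAT time points went from 16 to 21, with *Tef*, *Nfil3*, *Bhlhe40*, *Bhlhe41* and *Usp2* also called at ZT 22 (edgeR adjusted p between 0.00659 and 0.00958), *Nfil3* and *Usp2* at ZT 6 (*Usp2* at -0.69, edgeR adjusted p = 0.00868 in place of 0.026), and *Bhlhe41* and *Ciart* lost at ZT 18. No sample of ZT 6 or ZT 22 was left out there, and the differences hardly moved (*Usp2* at ZT 22 from -0.7723 to -0.7727). The fit shares its estimate of spread over all samples, so the adjusted p can change where the difference does not. With library size alone the BAT calls of *Dbp* and *Usp2* at ZT 10 and of *Tef*, *Nfil3* and *Ciart* at ZT 18 were lost (edgeR adjusted p between 0.0621 and 0.296), and 6 calls were gained, all higher in FANKO BAT: *Nfil3* at ZT 6 (1.38), *Bhlhe40* and *Bhlhe41* at ZT 10 (1.10 and 1.27), *Dbp* at ZT 18 and ZT 22 (0.99 and 1.36) and *Bhlhe41* at ZT 22 (1.25), which made 17 calls in place of 16. In eWAT it lost *Bhlhe41* at ZT 22 and called *Tef* at ZT 6 and ZT 10 (-0.74 and -0.78) and *Dbp* at ZT 10 (-0.72) lower. Leaving out the samples numbered 3 ended the calls of *Dbp* and *Usp2* in BAT at ZT 10 (edgeR adjusted p = 0.0389 and 0.0101), of *Dbp* in eWAT at ZT 22 (0.0165) and of *Bhlhe41* in BAT at ZT 18 (0.0153, and 0.0157 without those numbered 1) and in eWAT at ZT 22 (0.05). Of 32 pairs of member and time point in BAT, 18 had groups of 4 that did not overlap, 16 of them lower in FANKO mice, and 48.2% of all such pairs over all genes did not overlap. In eWAT 11 of 32 did not overlap, 9 of them higher, against 31.2% of all pairs. Each of these had the smallest p that an exact two-sided permutation test of 4 against 4 can give, 0.0286, and 0 of the 64 passed at 0.05 after Benjamini-Hochberg adjustment over the 64. In neither depot was the share of non-overlapping pairs among the members far from that of all genes.

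The amplitudes of the members were larger than the median of all genes in both depots. The median distance between the highest and lowest time-point mean went from 1.83 log2 units in WT mice to 1.02 in FANKO mice in BAT, where the medians of all genes were 0.43 and 0.33, and from 1.88 to 1.76 in eWAT, where they were 0.37 and 0.35. In BAT 7 of 8 members had the smaller amplitude in FANKO mice, *Bhlhe41* being the exception, against 64.2% of all genes. In eWAT 6 of 8 did, the exceptions being *Bhlhe40* and *Usp2*, against 54.7% of all genes. Among those 6 was *Nfil3*, at 2.89 in WT and 2.87 in FANKO eWAT. By fitted peak-to-trough distance 5 of 8 were smaller in FANKO eWAT and 7 of 8 in FANKO BAT. For *Dbp* and *Nfil3* in BAT and for *Dbp* and *Hlf* in eWAT, the 95% interval of the difference in fitted peak-to-trough distance lay below 0, at -1.74 (-2.53 to -0.95), -1.86 (-2.59 to -1.12), -1.61 (-2.31 to -0.92) and -1.19 (-1.95 to -0.44).

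**Figure D4:**
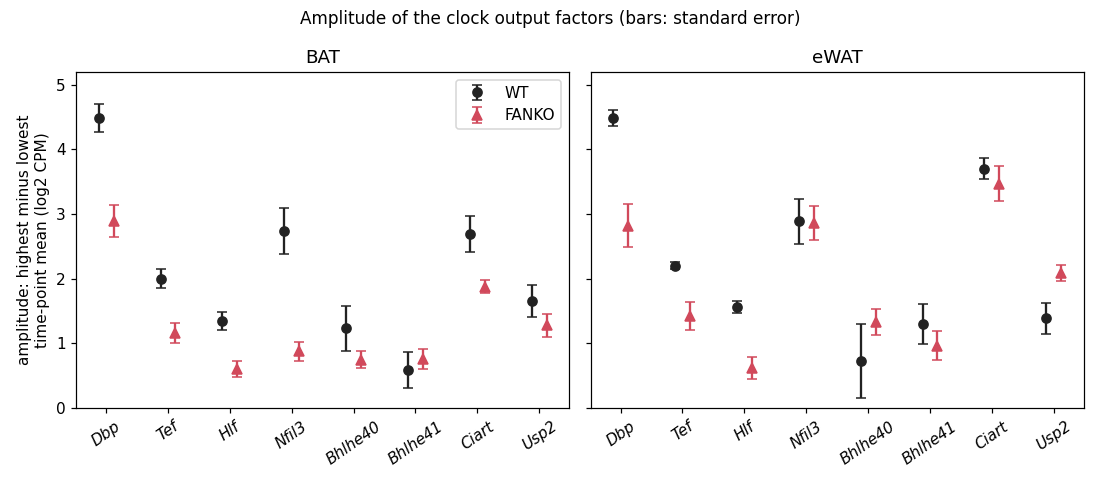
Amplitude of each member, the highest minus the lowest time-point mean in log2 CPM, with its standard error, in WT (black circles) and FANKO mice (red triangles), for BAT (left) and eWAT (right). *Nfil3* goes from 2.74 to 0.88 in BAT and from 2.89 to 2.87 in eWAT, whereas *Dbp*, *Tef* and *Hlf* are lower in FANKO mice of both depots.

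The time point of the highest mean was the same in both genotypes for 6 of 8 members in each depot. *Dbp*, *Tef*, *Hlf* and *Ciart* had their highest mean at ZT 10 in every depot and genotype, *Usp2* at ZT 10 in BAT and at ZT 18 in eWAT, and *Nfil3* at ZT 18, or at ZT 22 in FANKO eWAT. In WT BAT the fitted cosine placed *Dbp* at 9.04 ± 0.34 h (SE), *Ciart* at 9.88 ± 0.46 h, *Hlf* at 11.4 ± 0.45 h, *Tef* at 11.49 ± 0.50 h, *Usp2* at 13.1 ± 0.45 h and *Nfil3* at 17.8 ± 0.53 h. FANKO peaks of *Dbp*, *Tef* and *Nfil3* in eWAT were fitted later than WT peaks by 1.11 h (95% interval 0.18 to 2.04), 1.11 h (0.43 to 1.79) and 1.57 h (0.04 to 3.10), and the shifts of the same genes in BAT were 0.84, 1.12 and 0.72 h with intervals that include 0. The intervals of *Hlf*, *Usp2* and *Ciart* included 0 in both depots. Among these, *Hlf* in BAT was fitted 1.64 h later (-0.40 to 3.69) and *Usp2* in BAT at -1.07 h (-2.70 to 0.57). Larger fitted shifts were those of *Bhlhe41* in eWAT, 5.11 h later (1.77 to 8.44), and of *Bhlhe40* in eWAT, 6.2 h later (-3.46 to 15.79). Earlier in FANKO mice were *Bhlhe40* in BAT, -6.53 h (-9.79 to -3.27), and *Bhlhe41* in BAT, -9.18 h (-14.46 to -3.91). For each of these the rhythm in FANKO mice was not called (edgeR adjusted p = 0.249, 0.0121, 0.278 and 0.132). In WT mice it was not called either for *Bhlhe40* in eWAT and *Bhlhe41* in BAT. A fitted peak of an uncalled rhythm is uncertain. With 4 time points these hours describe the fit and carry no test.

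Likeness of pattern was described for the activator *Dbp* and the repressor *Nfil3* by Pearson correlation over the 16 group means of log2 CPM, which share depots, genotypes and time points. Closest to *Dbp* were *Nr1d2*, which encodes REV-ERB beta (r = 0.91), *Tk2*, a mitochondrial thymidine kinase (0.89), and *Foxj3* (0.89). Closest to *Nfil3* were *Fem1b* (0.95), the clock repressor *Cry1* (0.92) and *Iffo2* (0.92). Among the members, *Dbp* correlated at 0.78 with *Ciart*, 0.73 with *Tef* and -0.82 with *Nfil3*, and *Hlf* at 0.75 with *Tef* and 0.70 with *Usp2*.

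The core clock genes upstream of the members were rhythmic in 11 of 13 cases in WT BAT and in 8 of 13 in FANKO BAT, where 13.9% and 2.84% of all genes were called, and likewise in 11 and 8 in eWAT, where 9.38% and 6.77% were. The genotypes differed in rhythm for 7 of the 13 genes in BAT and for 1 in eWAT, against 2.76% and 1.15% of all genes. The direct test of whether the effect of genotype on rhythm differed between depots called 0 of the 13, where 2.09% of all genes were called. *Arntl*, which encodes BMAL1, had an amplitude of 4.53 ± 0.32 in WT and 1.26 ± 0.13 in FANKO BAT (edgeR adjusted p = 5.89e-07) and of 4.87 ± 0.15 and 3.78 ± 0.27 in eWAT (edgeR adjusted p = 0.385). *Cry1* went from 2.81 ± 0.18 to 0.84 ± 0.13 in BAT (edgeR adjusted p = 1.09e-05) and from 2.63 ± 0.20 to 1.54 ± 0.08 in eWAT (edgeR adjusted p = 0.129). The receptor gene *Rora* also differed in rhythm in BAT (edgeR adjusted p = 0.00223), with an amplitude of 0.43 in WT and 0.70 in FANKO BAT. In mean level 1 core clock gene was higher and 4 were lower in FANKO BAT, and 2 were higher and 2 lower in eWAT, where 33.1% of all genes were higher and 33.9% lower in BAT, and 27.6% and 22.8% in eWAT. Calls of mean level were thus no more frequent than among all genes.

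Of 18 other clock-controlled genes shared by many tissues, 17 were rhythmic in BAT of WT mice against 4 in that of FANKO mice, and 12 against 10 in eWAT, and genotypes differed in rhythm for 8 in BAT and 5 in eWAT. The effect of genotype on rhythm was called different between depots for 4 of the 18. The shares of all genes called were those given for the core clock genes, and among all genes too the rhythmic share was smaller in FANKO than in WT BAT. *Dtx4*, which encodes a ubiquitin ligase, had an amplitude of 3.16 ± 0.14 in WT and 0.86 ± 0.19 in FANKO BAT and of 2.80 ± 0.11 and 1.27 ± 0.30 in eWAT (edgeR adjusted p = 1.39e-07 and 4.18e-06). The metallothionein gene *Mt2* (3.65 against 0.70), *Lonrf3* (3.17 against 0.66) and the cell-cycle inhibitor gene *Cdkn1a* (2.58 against 0.44) also differed in rhythm in BAT (edgeR adjusted p = 4.84e-06, 1.09e-05 and 1.82e-05). In eWAT the rhythm differed for *Cdkn1a* (edgeR adjusted p = 0.00268) and not at the threshold for *Mt2* or *Lonrf3* (edgeR adjusted p = 0.644 and 0.636).

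A list of 12 metabolic genes known as D-box targets in other tissues was mostly lower in FANKO BAT. In mean level 9 of 12 were lower and 1 was higher in BAT, with a median of -0.88 on the log2 scale where that of all genes was 0.00, and 3 were higher and none lower in eWAT, with a median of -0.05 where that of all genes was -0.02. Of all genes, 33.9% were lower and 33.1% higher in BAT, and 22.8% and 27.6% in eWAT. In BAT the rhythm was called for 9 of the 12 with the WT genotype (13.9% of all genes), for 3 with the FANKO genotype (2.84%), and its difference for 3 (2.76%). In eWAT the corresponding counts were 6 (9.38%), 1 (6.77%) and 1 (1.15%). Between depots the effect of genotype on rhythm was called different for 1 of the 12 (2.09%). *Por*, the reductase that serves cytochrome P450 enzymes and that is also among the 18 genes above, had an amplitude of 1.04 ± 0.06 in WT and 0.55 ± 0.10 in FANKO BAT (edgeR adjusted p = 0.000233), and of 0.80 ± 0.11 and 0.32 ± 0.04 in eWAT (edgeR adjusted p = 0.00602). *Alas1*, the first enzyme of heme synthesis, went from 1.19 ± 0.08 to 0.17 ± 0.07 in BAT (edgeR adjusted p = 0.00203) and was lower in mean level by 1.19. The acyl-CoA thioesterase genes *Acot4* (2.37 against 1.45) and *Acot1* (3.94 against 1.30) had smaller amplitudes in FANKO BAT too, with edgeR adjusted p = 0.00833 and 0.0172, the latter missing the threshold. These thioesterase genes belong to one family, and how reads that match several genes were counted is not given, so their counts are uncertain.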

How the data were processed

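RNA from 64 samples, 4 in each of 16 groups of depot, genotype and ZT, had been sequenced after ribosomal RNA removal as paired reads of 38 bases. The deposited values are raw read counts per gene. Per the submitters' processing notes and methods, the authors aligned with STAR 2.5.3a to GRCm38.p5, with GENCODE version 15 named, and counted with featureCounts 1.5.3, after quality control with FastQC 0.11.5 and MultiQC 1.2. The strand and multimapping settings are not given in the sources used here. Gene symbols and coordinates were taken from GENCODE M21, and 52403 of 52636 genes had a symbol.

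Genes were filtered with filterByExpr over the 16 groups (minimum count 10, minimum total 15), which left 20249, and were scaled by TMM. The edgeR quasi-likelihood test (edgeR 4.0.16, R 4.3.3) used the whole set of 64 samples, each combination of depot and genotype having its own level and 24-h cosine and sine terms (12 coefficients), and a factor of 16 groups for single time points. Benjamini-Hochberg adjustment was over all genes tested and an FDR below 0.01 was called. Log2 CPM used a prior count of 2. Two-sided exact permutation tests compared 4 against 4 samples. Alternatives were other scalings, filters, thresholds and models, limma-voom (limma 3.58.1), DESeq2 1.42.0 and samples left out. Total counts per sample ranged from 6117343 to 30544847, which limits precision for *Ciart* and the troughs of *Dbp*. The test was tested on simulated counts. The labels do not say whether the samples of a group came from separate animals or which samples share an animal, so p-values measure the spread between these samples.

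The members, the gene lists and the tests were chosen with earlier results of these data known. The text names all members, *Nampt*, the genes that overlap a member, the 3 genes most correlated with *Dbp* and with *Nfil3*, and the 4 genes of each list with the smallest p for the difference of rhythms in BAT. One result that this rule selects is not reported here.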

Additional observations from a re-analysis of the deposited data

Results flagged for a closer look

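In 11 of 128 groups of 4 samples, the highest or lowest sample was separated from the nearest other by a gap, relative to the group's range in log2 CPM, above the 95% critical value of Dixon's test, which chance alone gives in about 1 group in 20. In WT BAT at ZT 18, *Dbp* had 3.07 in the sample numbered 1 (nearest 2.09), and the sample numbered 4 had *Nfil3* at 6.25 (nearest 4.99), *Ciart* at 2.49 (nearest 1.73) and *Usp2* at 5.83 (nearest 4.5). Elsewhere in BAT, *Nfil3* was at 2.09 in WT at ZT 6 (nearest 2.66), *Bhlhe40* at 7.11 in WT at ZT 22 (nearest 8.05), *Ciart* at 1.52 in FANKO mice at ZT 18 (nearest 0.73) and *Usp2* at 3.55 in FANKO mice at ZT 10 (nearest 4.06). In eWAT, *Nfil3* was at 4.30 in FANKO mice at ZT 18 (nearest 4.75), and *Usp2* was at 3.34 in WT at ZT 6 (nearest 2.71) and at 3.28 in FANKO mice at ZT 22 (nearest 3.93).

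The effect of genotype on mean level differed between BAT and eWAT for 7 members by a test of the difference itself with edgeR. Of all genes, 32.1% were called more negative in BAT and 32.2% more positive. With library size alone only *Ciart* and *Hlf* remained called more negative, and the call of *Nfil3* was lost in several other settings too. The effect in BAT minus that in eWAT was -1.61 for *Hlf*, -0.91 for *Tef*, -0.98 for *Bhlhe40*, -1.20 for *Usp2*, -1.66 for *Ciart*, -0.55 for *Nfil3* and -0.80 for *Dbp* on the log2 scale.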

How the results depend on the processing

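For the 8 members, 160 comparisons gave 2304 values under other settings, of which 2103 kept direction and side of the threshold, 81 gained and 70 lost a call in the same direction and 50 changed sign. Library size alone accounts for 20 of those 50, and only 4 of the 50 had been called. The cause of these changes was not tested. Depth limits *Ciart*, which had 12 to 17 reads per sample in WT eWAT at ZT 22. Leaving out WT ZT 18 samples numbered 4 was chosen after seeing the data.

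Counts of members called changed as follows. They are not set against the share of all genes called under each setting, so they describe stability alone. Single time points in BAT went from 16 to 25 at an FDR below 0.05 and ranged from 12 to 21 with samples left out, and in eWAT from 6 to 10 and from 3 to 7. Mean level in eWAT ranged from 1 to 4 with samples left out (1 without those numbered 3). The difference of rhythms in BAT ranged from 1 to 3, and in eWAT it went from 1 to 2 at an FDR below 0.05. The depot difference of the effect on mean level went from 7 to 3 with library size alone. The rhythm of WT BAT against WT eWAT went from 0 to 2 at an FDR below 0.05, with time point as a factor and with a replicate block across depots, to 1 with library size alone, a replicate block, limma-voom and DESeq2, and ranged from 0 to 1 with samples left out. By fitted cosine the median amplitude was 2.38 in place of 1.88 in WT eWAT and 2.34 in place of 1.76 in FANKO eWAT.

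Same-numbered samples had median correlations of 0.0608 (WT and FANKO BAT), 0.044 (WT and FANKO eWAT), 0.0514 (WT BAT and eWAT) and 0.0592 (FANKO BAT and eWAT), and 3, 3, 5 and 5 of 16 pairs were over 0.1. Of 16 samples 10, 5, 10 and 8 were most like their own number, where 4 of 16 would be if the numbers carried nothing, a hint from the data and not from the design. Not every pair was over 0.1, and the numbers were not treated as pairs. With the replicate block, single time points called went to 17 in BAT and 7 in eWAT. With a replicate block across depots, the depot difference of the effect on rhythm went from 0 to 1 (*Bhlhe40*, edgeR adjusted p = 0.00343), and in WT BAT against WT eWAT *Dbp* was called in mean level (-0.34, edgeR adjusted p = 0.000457) and *Bhlhe40* and *Bhlhe41* in rhythm (edgeR adjusted p = 7.23e-05 and 0.00523).

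With library size alone the sign changed for FANKO against WT in BAT in *Bhlhe40* at ZT 18 (0.46), *Tef* and *Ciart* at ZT 22 (0.13 and 0.024) and *Bhlhe40* and *Bhlhe41* at ZT 6 (0.15 and 0.48). In eWAT it changed for *Bhlhe41* and *Usp2* at ZT 10 (-0.19 and -0.11), *Tef* and *Nfil3* at ZT 18 (-0.0616 and -0.0575) and *Hlf* and *Bhlhe40* at ZT 6 (-0.23 and -0.26). Mean level changed sign in BAT for *Dbp* (0.31), *Nfil3* (0.34) and *Bhlhe40* (0.39), in eWAT for *Usp2* (-0.11), between depots for *Dbp* (0.0381) and *Nfil3* (0.27), and in WT BAT against WT eWAT for *Tef* (-0.26), *Bhlhe41* (-0.73) and *Usp2* (-0.0086). *Bhlhe40* in eWAT at ZT 6, at 0.01, also turned to -0.0472 with RLE size factors, -0.0508 with DESeq2, -0.0139 with TMM without the mitochondrial genome, -0.0142 with a replicate block, -0.0256 without a filter and -0.029 with separate fits. *Bhlhe41* in WT BAT against WT eWAT turned to -0.0019 with RLE size factors and to -0.0072 with DESeq2.

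With samples left out, values that changed sign ranged as follows on the log2 scale. In BAT they were -0.36 to 0.0001 for *Bhlhe40* at ZT 18, -0.20 to 0.13 for *Bhlhe41* at ZT 6 and -0.19 to 0.37 for *Nfil3* at ZT 10. In eWAT they were -0.20 to 0.11 for *Bhlhe40*, -0.29 to 0.0469 for *Bhlhe41* and -0.0756 to 0.26 for *Hlf* at ZT 6, -0.0009 to 0.18 for *Bhlhe41*, -0.42 to 0.19 for *Nfil3* and -0.26 to 0.38 for *Usp2* at ZT 10, and -0.17 to 0.0668 for *Hlf*, -0.12 to 0.27 for *Nfil3* and -0.0064 to 0.30 for *Tef* at ZT 18. Mean level ranged from -0.10 to 0.0145 for *Hlf* in eWAT, from -0.0445 to 0.17 for *Bhlhe41* between depots and from -0.0761 to 0.12 for *Bhlhe41* in WT BAT against WT eWAT.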
